A study of Homo sapiens with 8 samples.

Results

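Serine is made from a glycolytic intermediate by the enzymes PHGDH, PSAT1 and PSPH, and its side chain carbon is then passed to folate by SHMT1 and SHMT2 and processed by MTHFD1, MTHFD2, MTHFD1L, ALDH1L1 and ALDH1L2. The transcripts of these 10 enzymes were followed in CHP212 cells, a human line from neuroblastoma in which MYCN transcripts are abundant. They were taken by gene symbol from the deposited tables of read counts and RPKM, which list 25369 genes. RPKM corrects reads for gene length and for library size. All 10 had enough reads to be among the 15879 genes tested, although ALDH1L1 reached the minimum through Nutlin-3a libraries alone.

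In the folate pathway, serine gives its carbon to tetrahydrofolate, and the product is used to make purines and thymidylate or is released as formate. The same steps exist in the cytosol (SHMT1, MTHFD1, ALDH1L1) and in mitochondria (SHMT2, MTHFD2, MTHFD1L, ALDH1L2), and proliferating cells are known to run the mitochondrial arm towards formate, which the cytosolic arm consumes. Transcription of the serine synthesis and mitochondrial folate genes is known to be driven by ATF4, the effector of the amino acid stress response, and in neuroblastoma also by MYCN.

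The groups were FAM193A knockout (KO) cells with Nutlin-3a, unmodified (WT) cells with Nutlin-3a, KO cells with DMSO and WT cells with DMSO, each with 2 independent biological replicates. Nutlin-3a, given at 10 uM, is a small molecule that binds MDM2, a ubiquitin ligase. DMSO, given at 0.2%, was the vehicle, and exposure lasted 12 h in all groups. The labels name 1 KO population, so the lost gene and any other property of that population cannot be told apart, and p values measure the spread between replicates alone.

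Read totals ran from 28390405 to 38010075 per library. FAM193A was still read in KO cells, at 40.1 ± 2.76 CPM in KO against 47.4 ± 4.17 CPM in WT cells under Nutlin-3a and 33.5 ± 1.84 CPM in KO against 42.0 ± 2.95 CPM in WT cells under DMSO (SD, n = 2 each), so its level is a weak check of the label. CPM here are reads relative to the library total after TMM scaling of the totals. The neuroblastoma marker HAND2 (577 to 858 CPM) was high in every library, while CHGB and STMN2 stayed at or under 1.84 CPM. The 12 neuroblastoma markers summed to 3966 to 4155 CPM in KO Nutlin-3a, 3264 to 3425 CPM in WT Nutlin-3a, 4549 to 4621 CPM in KO DMSO and 4909 to 4944 CPM in WT DMSO cells. Of 17 markers of other lineages, 4 to 8 had 0 reads in a library and CD3E had 0 in all 8. Apart from COL1A1, a collagen gene with 94285 to 170551 reads per library, these markers summed to 39.7 to 44.7 CPM in KO Nutlin-3a, 20.5 to 24.0 CPM in WT Nutlin-3a, 52.3 to 53.5 CPM in KO DMSO and 24.4 to 27.6 CPM in WT DMSO cells. Their part in the genotype differences below was not tested. Genes with at least 30 reads and more than 10 times the level of the other replicate numbered 9 in KO Nutlin-3a replicate 2, 32 in WT Nutlin-3a replicate 1, 14 in WT DMSO replicate 2 and 0 to 2 elsewhere. Counts are therefore also given without these 3 libraries. That fit keeps all libraries of KO DMSO cells but only a single library of each other group. Its spread between replicates thus comes from the 2 KO DMSO libraries alone, and its calls are a weak check.

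The question of the first comparison is what Nutlin-3a did to these transcripts in each genotype. In KO cells SHMT1 and MTHFD1 fell, and PSAT1, PSPH, MTHFD2 and MTHFD1L rose, so 2 of the 10 fell and 4 rose, beside 20.6% lower and 18.1% higher over all tested genes at an adjusted p under 0.05 in edgeR's quasi-likelihood test. In WT cells 7 of the 10 fell, led by SHMT1, MTHFD1 and PHGDH, and PSPH rose, beside 29.2% lower and 29.4% higher over all tested genes. ALDH1L1 was also called higher in WT cells, but it passed the low-count filter only through Nutlin-3a libraries and lost the call without WT Nutlin-3a replicate 1 or WT DMSO replicate 1. The median log2 change of the 10 enzymes was 0.13 in KO cells, where that of all tested genes was -0.01, and -0.32 in WT cells, where that of all tested genes was 0.02. Both medians include ALDH1L1. With ALDH1L1 set aside, the middle value was that of SHMT2 in KO cells (0.04) and that of MTHFD2 in WT cells (-0.34). Without the 3 libraries named above, 2 fell and 4 rose in KO cells, and 7 fell and 1 rose in WT cells. In bulk RNA, fewer cells that make a transcript and less transcript per cell cannot be told apart.

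**Figure D1:**
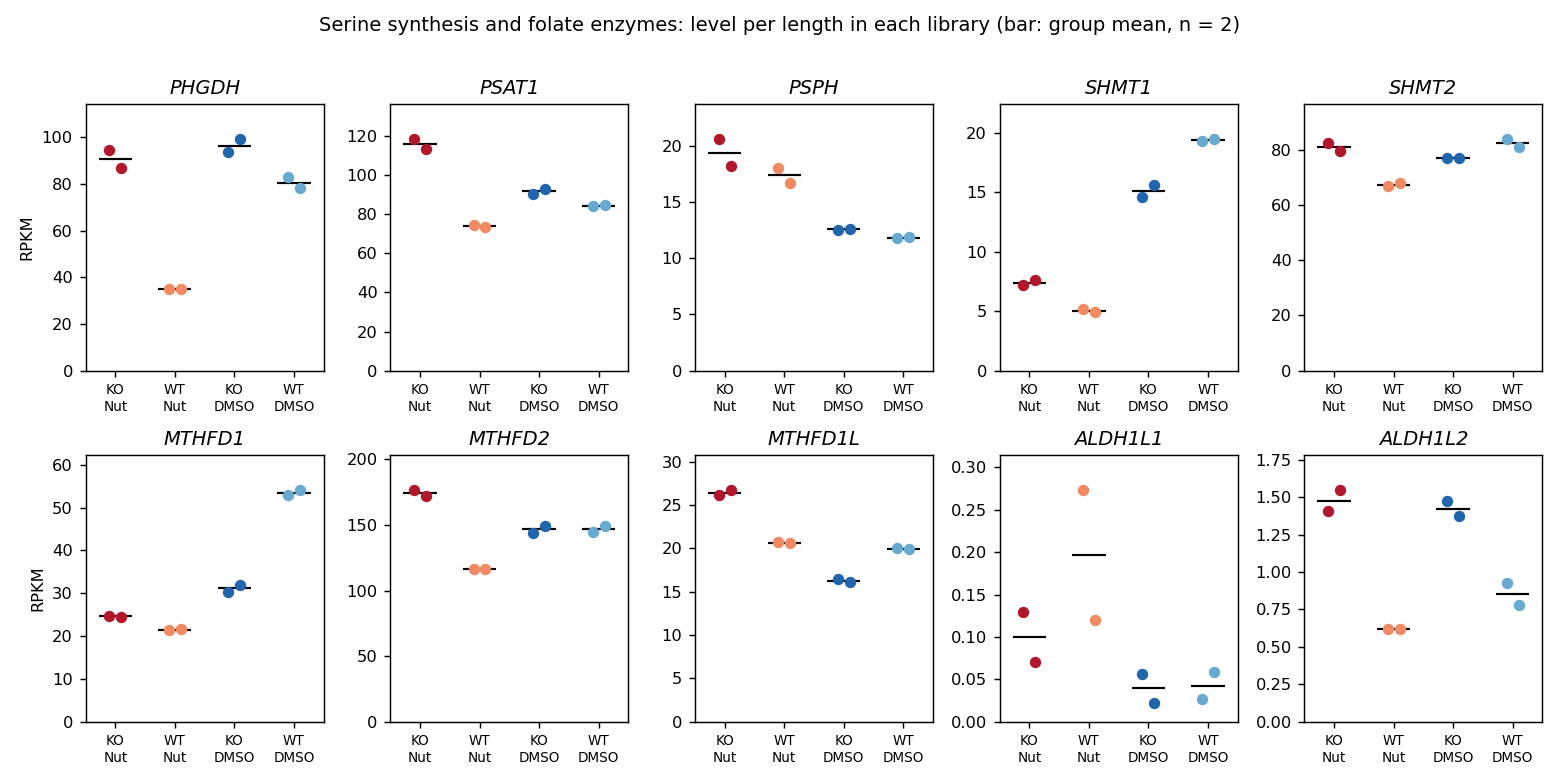
Level of each of the 10 enzymes in RPKM (vertical axes, each from 0) in every library, with points for libraries and a line for the mean of the 2 replicates. WT Nutlin-3a points are the lowest of the 4 groups for PHGDH, at 35.1 and 35.2 RPKM, and KO Nutlin-3a points are the highest for PSAT1, MTHFD2 and MTHFD1L.

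Among the serine synthesis enzymes, PHGDH, which oxidises 3-phosphoglycerate in the first step, differed most between the genotypes under Nutlin-3a. PHGDH had 183 and 169.7 CPM in KO Nutlin-3a and 72.8 and 72.4 CPM in WT Nutlin-3a cells, beside 186 and 197 CPM in KO DMSO and 172 and 162 CPM in WT DMSO cells. The WT Nutlin-3a libraries stood alone below every other library, with a group mean of 72.6 CPM, against 176 CPM in KO Nutlin-3a, 192 CPM in KO DMSO and 167 CPM in WT DMSO cells. Its log2 fold change with Nutlin-3a was -0.12 in KO cells (SE 0.05, adjusted p = 0.0671) and -1.20 in WT cells (SE 0.05, adjusted p = 5.8e-13), a fall in WT cells. The small KO change passed the threshold at -0.17 without KO Nutlin-3a replicate 1 (adjusted p = 0.0478), at -0.10 without WT Nutlin-3a replicate 1 (adjusted p = 0.0352) and at -0.12 without WT Nutlin-3a replicate 2 (adjusted p = 0.0106). It also passed at -0.13 with no low-count filter (adjusted p = 0.0384) and at -0.10 in a fit to only the 4 KO libraries (adjusted p = 0.0326). The WT libraries are not part of the KO comparison and enter it only through shared steps such as the estimate of the spread. The fit to the 4 KO libraries called more genes of any kind, 7324 against 6141 in the main fit.

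PSAT1, the aminotransferase of the second step, moved in opposite directions in the genotypes. Its level was 256 and 247 CPM in KO Nutlin-3a, 173 and 169 CPM in WT Nutlin-3a, 201 and 206 CPM in KO DMSO, and 195 and 196 CPM in WT DMSO cells. PSAT1 rose with Nutlin-3a in KO cells (0.30, SE 0.04, adjusted p = 2.0e-05) and fell in WT cells (-0.19, SE 0.04, adjusted p = 0.00112), with no overlap between treatments in either genotype. PSPH, the phosphatase that releases serine, rose in both genotypes. PSPH stood at 41.8 and 37.2 CPM in KO Nutlin-3a and 39.3 and 36.1 CPM in WT Nutlin-3a, against 26.0 and 26.4 CPM in KO DMSO and 25.7 and 25.9 CPM in WT DMSO cells. The rise was 0.59 in KO cells (SE 0.07, adjusted p = 1.8e-06) and 0.55 in WT cells (SE 0.07, adjusted p = 3.3e-06). Summed over the 3 serine enzymes, transcripts came to 481 and 454 CPM in KO Nutlin-3a, 286 and 277 CPM in WT Nutlin-3a, 413 and 429.97 CPM in KO DMSO, and 393 and 385 CPM in WT DMSO cells.

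SHMT1 and SHMT2 both convert serine to glycine while loading folate with its carbon, SHMT1 in the cytosol and SHMT2 in mitochondria. SHMT1 had the steepest fall of the 10 enzymes in both genotypes. It had 17.6 and 18.9 CPM in KO Nutlin-3a and 13.5 and 12.8 CPM in WT Nutlin-3a, against 36.6 and 39.3 CPM in KO DMSO and 50.6 and 51.3 CPM in WT DMSO cells. No 2 of these 4 groups overlap, and the change with Nutlin-3a was -1.06 in KO (SE 0.07, adjusted p = 5.3e-10) and -1.95 in WT cells (SE 0.07, adjusted p = 6.3e-14). SHMT2 moved far less, with 227 and 219.6 CPM in KO Nutlin-3a, 197 and 198 CPM in WT Nutlin-3a, 217 and 217 CPM in KO DMSO, and 246 and 238 CPM in WT DMSO cells. Its change was 0.04 in KO cells (SE 0.04, adjusted p = 0.509), and it fell by 0.30 in WT cells (SE 0.04, adjusted p = 1.2e-05).

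MTHFD1 is the cytosolic enzyme with 3 activities that interconvert the carbon units on folate and turn formate back into them. Its level was 81.5 and 81.9 CPM in KO Nutlin-3a and 76.2 and 76.0 CPM in WT Nutlin-3a, against 103 and 109 CPM in KO DMSO and 188 and 192 CPM in WT DMSO cells. Both Nutlin-3a groups were close to each other, while the DMSO groups lay far apart. MTHFD1 fell with Nutlin-3a in KO (-0.38, SE 0.05, adjusted p = 3.5e-06) and in WT cells (-1.32, SE 0.05, adjusted p = 3.0e-14).

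MTHFD2, the mitochondrial dehydrogenase and cyclohydrolase, was the most abundant of the 10 per length. It had 387 and 380.5 CPM in KO Nutlin-3a, 274 and 271 CPM in WT Nutlin-3a, 324 and 336 CPM in KO DMSO, and 340.2 and 351 CPM in WT DMSO cells. As with PSAT1, MTHFD2 rose in KO cells (0.22, SE 0.04, adjusted p = 0.000691) and fell in WT cells (-0.34, SE 0.04, adjusted p = 2.6e-06). MTHFD1L, the mitochondrial synthetase that releases formate, had 92.2 and 94.8 CPM in KO Nutlin-3a, 78.2 and 77.1 CPM in WT Nutlin-3a, 59.6 and 58.2 CPM in KO DMSO, and 75.6 and 75.4 CPM in WT DMSO cells. It rose by 0.67 with Nutlin-3a in KO cells (SE 0.05, adjusted p = 2.0e-09), while the WT response was 0.04 (SE 0.05, adjusted p = 0.493).

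Promoter sequences, from RefSeq on GRCh38.p14, were at hand for 7 of the 10 enzymes in 11 windows that run from 250 bases before to 50 bases after a transcript start. They were searched on both strands for the ATF4 element TGATGNAA (in 3.62% of 35116 RefSeq promoter windows), the E-box CACGTG that MYC family proteins bind (7.26%), the E2F motifs TTTGGCGC (0.652%) and TTTCCCGC (1.63%), and TTTGAA, the cell cycle homology element (15.2%). The ATF4 element was found in 1 of the 7, MTHFD1L, and the E-box in 2, MTHFD1L and MTHFD1. These counts are of enzymes and the shares are of windows. Enzymes with several windows, MTHFD1L among them, have more chances of a match, so the counts and shares are not directly comparable. TTTCCCGC was found in ALDH1L1, TTTGAA in ALDH1L1 and in a distant window of MTHFD1L, and TTTGGCGC in 0 of the 7. The bases before the start are shown for MTHFD1L, which alone of the 7 holds the ATF4 element, and for MTHFD1, its cytosolic counterpart, which fell with Nutlin-3a in KO cells where MTHFD1L rose, chosen after the values were seen. MTHFD1L lies on the plus strand at chr6:150866236-150866485, with the E-box starting 154 bases and the ATF4 element 129 bases before the start. MTHFD1 lies on the plus strand at chr14:64388103-64388352, with the E-box starting 15 bases before the start. Capitals mark the motifs, the E-box first in both and the ATF4 element after it in MTHFD1L.
MTHFD1L: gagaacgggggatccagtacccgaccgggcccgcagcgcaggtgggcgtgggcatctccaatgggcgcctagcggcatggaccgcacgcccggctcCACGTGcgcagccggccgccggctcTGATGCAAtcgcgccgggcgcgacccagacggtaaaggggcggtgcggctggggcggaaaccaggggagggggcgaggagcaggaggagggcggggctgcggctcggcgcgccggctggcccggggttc
MTHFD1: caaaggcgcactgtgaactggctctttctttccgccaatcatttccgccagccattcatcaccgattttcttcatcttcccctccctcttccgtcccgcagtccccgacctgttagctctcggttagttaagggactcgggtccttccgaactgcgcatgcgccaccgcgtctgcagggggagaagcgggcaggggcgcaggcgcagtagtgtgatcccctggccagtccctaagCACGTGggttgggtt
A match is a string of letters and not a site shown to be bound, and its part in the changes above was not tested. The 3 overlapping MTHFD1L windows hold the same pair of motifs.

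The ALDH1L enzymes oxidise 10-formyltetrahydrofolate to carbon dioxide and were the least abundant. The mitochondrial ALDH1L2 had 10.2 and 11.3 CPM in KO Nutlin-3a and 4.81 and 4.78 CPM in WT Nutlin-3a, beside 10.9 and 10.2 CPM in KO DMSO and 7.16 and 6.04 CPM in WT DMSO cells. Every KO library was above every WT library. The change of ALDH1L2 with Nutlin-3a was 0.02 in KO cells (SE 0.11, adjusted p = 0.911) and -0.46 in WT cells (SE 0.14, adjusted p = 0.00684), a call lost without WT DMSO replicate 1 (-0.31, adjusted p = 0.133). The cytosolic ALDH1L1 had 16 and 8 reads in KO Nutlin-3a and 30 and 12 reads in WT Nutlin-3a, against 7 and 3 reads in KO DMSO and 3 and 6 reads in WT DMSO cells. Its change in KO cells was 1.31 (SE 0.67, adjusted p = 0.135). It passed the minimum of 0.315 CPM in 3 libraries, all with Nutlin-3a, so its fitted 4.60-fold rise in WT cells (adjusted p = 0.00554) rests on few reads. Leaving out WT Nutlin-3a replicate 1 ended that call (log2 change 1.495, adjusted p = 0.118), as did leaving out WT DMSO replicate 1 (1.77, adjusted p = 0.0791) or the 3 libraries named above (2.11, adjusted p = 0.0850).

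**Figure D2:**
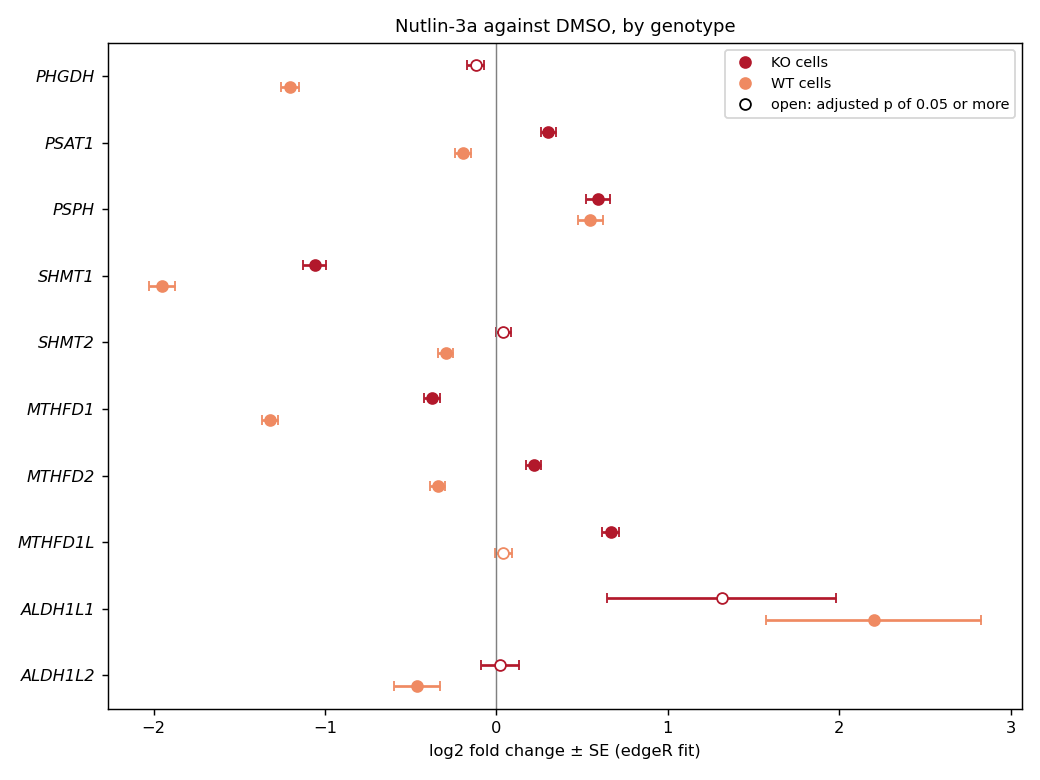
Fitted log2 fold change of Nutlin-3a over DMSO with its SE (horizontal axis) for each enzyme, KO above WT; open circles have an adjusted p of 0.05 or more. PSPH rises in both genotypes, while PSAT1 and MTHFD2 are right of 0 in KO cells and left of 0 in WT cells.

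The test of the difference between the KO and WT responses asked whether the genotypes answered Nutlin-3a differently. The difference was positive and called for 8 of the 10 enzymes and negative and called for 0, beside 14.2% higher and 13.4% lower over all tested genes. The largest was for PHGDH (1.08, SE 0.07, adjusted p = 8.2e-09), then MTHFD1 (0.94, SE 0.07, adjusted p = 1.3e-08) and SHMT1 (0.89, SE 0.10, adjusted p = 3.8e-06). MTHFD1L (0.63), MTHFD2 (0.56), PSAT1 (0.50) and SHMT2 (0.34) followed, with adjusted p values of at most 0.000488. For ALDH1L2 the difference of 0.48 (SE 0.17, adjusted p = 0.0476) was lost when any 1 of 7 of the 8 libraries was left out, with values of 0.35 to 0.56 and adjusted p values of up to 0.242. PSPH differed by 0.05 (SE 0.10, adjusted p = 0.786) and ALDH1L1 by -0.89 (adjusted p = 0.550). Without the 3 libraries named above 7 were called, all positive. The median difference over the 10, ALDH1L1 included, was 0.53, and over all tested genes it was -0.00.

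The genotypes were also set against each other within each treatment. Under Nutlin-3a, 7 of the 10 enzymes were higher in KO cells and 0 were lower, beside 32.7% higher and 30.4% lower over all tested genes. PHGDH led at 1.28 (SE 0.05, adjusted p = 1.9e-13), with ALDH1L2 at 1.16 (SE 0.13, adjusted p = 2.1e-07). PSAT1 (0.55), MTHFD2 (0.49), SHMT1 (0.47), MTHFD1L (0.27) and SHMT2 (0.18) were also higher, with adjusted p values of at most 0.00188. The difference was 0.10 for MTHFD1 (SE 0.05, adjusted p = 0.0735) and 0.07 for PSPH (SE 0.07, adjusted p = 0.404), whose libraries overlap between genotypes. ALDH1L1 stood at -1.06 (SE 0.52, adjusted p = 0.0829), and was called lower without WT Nutlin-3a replicate 2 (-1.53, adjusted p = 0.0234). Without the 3 libraries named above, where only KO DMSO keeps all its libraries, the PSPH difference was 0.20. On the RPKM scale, which has no TMM step, limma-trend on log2(RPKM + 0.1) called 6209 genes higher and 3747 lower in this comparison, against 5190 and 4822 in edgeR, and it called MTHFD1 higher (0.19, adjusted p = 0.00308), as did edgeR with upper-quartile factors (0.14, adjusted p = 0.0166).

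Under DMSO the enzymes were split, with 2 higher and 4 lower in KO cells, shares near the 31.4% higher and 30.1% lower of all tested genes. ALDH1L2 was higher (0.67, SE 0.12, adjusted p = 7.9e-05), and so was PHGDH (0.20, SE 0.05, adjusted p = 0.00224). MTHFD1 was lower at -0.84 (SE 0.05, adjusted p = 1.3e-11), the largest difference of the 10 under DMSO, and SHMT1 (-0.42, SE 0.06, adjusted p = 1.5e-05), MTHFD1L (-0.36, SE 0.05, adjusted p = 4.4e-06) and SHMT2 (-0.16, SE 0.04, adjusted p = 0.00404) were lower too. The threshold was not passed by PSAT1 (0.06), PSPH (0.02), MTHFD2 (-0.07) or ALDH1L1 (-0.18). PHGDH lost its call without KO DMSO replicate 2 (0.16, adjusted p = 0.0561) or WT DMSO replicate 2 (0.16, adjusted p = 0.0511), and SHMT2 lost its call without WT DMSO replicate 1 (-0.14, adjusted p = 0.0598). On the RPKM scale with limma-trend and a pseudocount of 0.1, 3 were higher and 3 lower, since PSAT1 passed (0.12, adjusted p = 0.0282) and SHMT2 did not (-0.10, adjusted p = 0.0655). Over all tested genes that setting called 5581 higher and 3889 lower, against 4990 and 4782 in edgeR. The median of all tested genes was 0.07 there and 0.01 in edgeR.

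**Figure D3:**
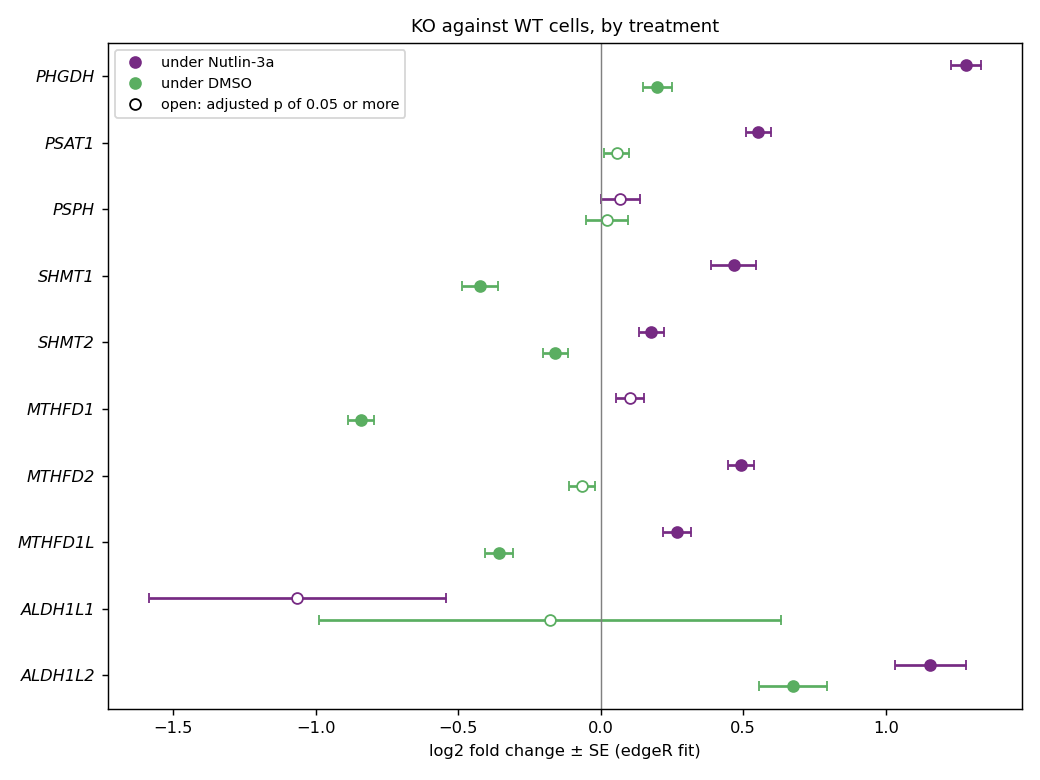
Fitted log2 fold change of KO over WT cells with its SE (horizontal axis) for each enzyme, under Nutlin-3a above and under DMSO below; open circles have an adjusted p of 0.05 or more. SHMT1, SHMT2 and MTHFD1L lie right of 0 under Nutlin-3a and left of 0 under DMSO, and MTHFD1 lies at -0.84 under DMSO.

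The balance of mitochondrial over cytosolic transcripts, as a ratio of RPKM values, was higher with Nutlin-3a in both genotypes for the SHMT and MTHFD pairs, and its group means were lower for the ALDH1L pair. SHMT2 over SHMT1 was 11.5 and 10.4 in KO Nutlin-3a against 5.28 and 4.92 in KO DMSO cells, and 13.0 and 13.8 in WT Nutlin-3a against 4.34 and 4.15 in WT DMSO cells. MTHFD1L over MTHFD1 was 1.06 and 1.09 in KO Nutlin-3a against 0.543 and 0.502 in KO DMSO cells, and 0.964 and 0.953 in WT Nutlin-3a against 0.378 and 0.368 in WT DMSO cells. MTHFD2 over MTHFD1 was 7.16 and 7.01 in KO Nutlin-3a against 4.75 and 4.66 in KO DMSO cells, and 5.43 and 5.39 in WT Nutlin-3a against 2.74 and 2.75 in WT DMSO cells. ALDH1L2 over ALDH1L1 was 10.9 and 21.8 in KO Nutlin-3a against 26.0 and 61.1 in KO DMSO cells, and 2.27 and 5.17 in WT Nutlin-3a against 33.9 and 13.4 in WT DMSO cells, where ALDH1L1 has 3 to 30 reads per library. The 4 ratios were built from members already described and were not tested. MTHFD1L over MTHFD1 and MTHFD2 over MTHFD1 share a denominator, so they are not independent of each other. In KO cells the ratio MTHFD1L over MTHFD1 moved with a rise of the mitochondrial transcript and a fall of the cytosolic one, and in WT cells only the fall passed the threshold.

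**Figure D4:**
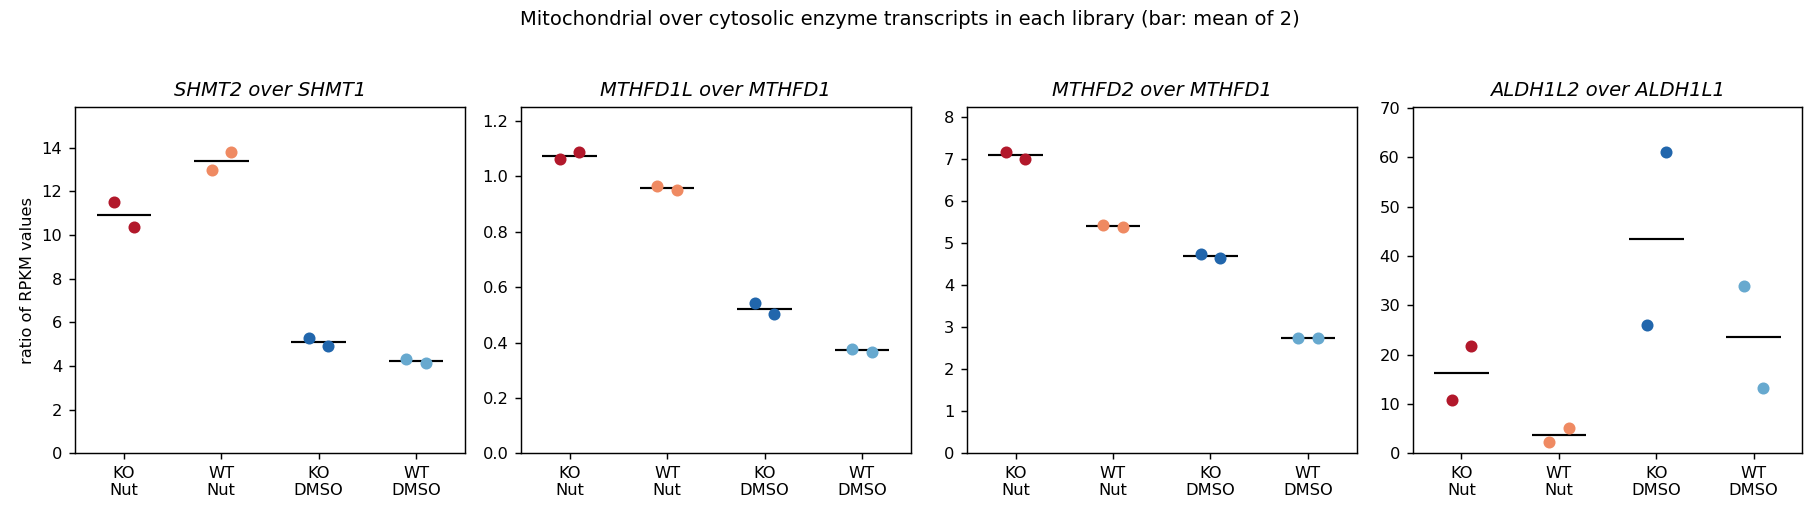
Ratio of RPKM values of a mitochondrial over a cytosolic enzyme (vertical axes, each from 0) in every library, with a line for the mean of 2. In the SHMT and MTHFD panels the Nutlin-3a libraries of each genotype lie above its DMSO libraries, SHMT2 over SHMT1 spanning 4.15 to 13.8, and in the ALDH1L panel they lie below.

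Per length, the order of the enzymes shifted with treatment and genotype. MTHFD2 was highest in all 4 groups, with mean levels of 174 RPKM in KO Nutlin-3a, 116 RPKM in WT Nutlin-3a, 147 RPKM in KO DMSO and 147 RPKM in WT DMSO cells, and ALDH1L2 and ALDH1L1 were lowest, at or under 1.55 RPKM in every library. PHGDH, at 35.1 RPKM, was behind SHMT2 at 67.3 RPKM in WT Nutlin-3a cells, whereas in KO Nutlin-3a cells it was ahead of SHMT2, at 90.9 against 81.0 RPKM. In WT DMSO cells PHGDH (80.5 RPKM) and SHMT2 (82.3 RPKM) overlap between libraries, the only neighbours in the order of any group that do. All 10 together summed to 1296 and 1261 CPM in KO Nutlin-3a, 930.4 and 918 CPM in WT Nutlin-3a, 1164 and 1199 CPM in KO DMSO, and 1300.02 and 1299.7 CPM in WT DMSO cells.

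Likeness between genes was measured as the root-mean-square difference of centred log2 CPM over the 8 libraries, where 0 means the same pattern. Among the enzymes the closest pair was PSAT1 and MTHFD2 (0.0770), followed by SHMT2 and MTHFD2 (0.124). The nearest of 14292 other genes was PYCR1, the last enzyme of proline synthesis, for MTHFD2 (0.0551) and RNH1 for SHMT2 (0.0313). SHMT1 was closest to UBE2T (0.0547), a DNA repair gene, MAD2L1 (0.0635), a mitotic checkpoint gene, and FKBP5 (0.0639). MTHFD1 was closest to RNASEH2B (0.0504), a subunit of the nuclease that removes ribonucleotides from DNA. RNF125 (0.0906) and GALNT14 (0.0987) were next for MTHFD1. WWC1 (0.0906) was nearest to PHGDH, MEIS3 (0.0495) to PSAT1, FAM162A (0.0665) to PSPH, BTG3 (0.106) to MTHFD1L and PQLC2 (0.0767) to ALDH1L2, while DCDC2 (0.216) was nearest to ALDH1L1. These are descriptions of 8 libraries in 4 groups and carry no test.

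Other genes of folate metabolism moved in both directions. Of 16 tested, 4 fell and 2 rose with Nutlin-3a in KO cells, with a median of -0.10, and 8 fell and 2 rose in WT cells, with a median of -0.27. Over all tested genes 20.6% fell and 18.1% rose in KO cells, shares near those of the list, and 29.2% fell and 29.4% rose in WT cells. The 2 that rose in KO cells were 1 without any 1 of KO Nutlin-3a replicates 1 and 2, KO DMSO replicates 1 and 2 or WT DMSO replicate 2, and the 2 in WT cells were 1 without WT Nutlin-3a replicate 2 or WT DMSO replicate 2. GGH, which trims folate polyglutamates, fell by 1.00 in KO and by 1.31 in WT cells, and SLC46A1, the proton-coupled folate transporter, rose by 0.94 in WT cells. TYMS, which makes thymidylate from a folate carbon, was higher in KO cells under Nutlin-3a (0.73, SE 0.06, adjusted p = 2.1e-09), and SLC25A32, the mitochondrial folate carrier, was lower in KO cells under Nutlin-3a (-0.65) and DMSO (-0.75). The difference of responses was called higher for 6 and lower for 1 of the 16, beside 14.2% and 13.4% of all tested genes. It was higher for 3 without KO Nutlin-3a replicate 2, KO DMSO replicate 1 or WT DMSO replicate 1.

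Most genes of purine synthesis, which consumes formyl groups from folate, fell in both genotypes. Of 13 tested genes 10 fell and 0 rose in KO cells, and 10 fell and 0 rose in WT cells, beside 20.6% lower and 18.1% higher of all tested genes in KO and 29.2% lower and 29.4% higher in WT cells. The list had median log2 changes of -0.27 in KO and -0.61 in WT cells. PAICS, a bifunctional enzyme of the pathway, had 281 and 289 CPM in KO Nutlin-3a and 235 and 227 CPM in WT Nutlin-3a, against 442 and 445 CPM in KO DMSO and 556 and 556 CPM in WT DMSO cells. Its change was -0.64 in KO and -1.27 in WT cells, and that of GMPS, which makes GMP, was -0.52 in KO and -1.22 in WT cells. The KO response was less negative by a called difference for 8 of the 13 genes, among them GMPS (0.70, SE 0.08), PAICS (0.63, SE 0.06) and PPAT (0.61, SE 0.07), and more negative for 0, beside 14.2% higher and 13.4% lower of all tested genes. Under Nutlin-3a 5 of the 13 were higher and 1 lower in KO cells, IMPDH1 at -0.83, beside 32.7% and 30.4% of all tested genes. Under DMSO 2 were higher and 9 lower, IMPDH1 lowest at -0.69, beside 31.4% and 30.1%. The 2 were 1 when either KO DMSO or either WT DMSO library was left out.

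Genes that use serine or glycine, 11 of 12 tested, were lower for 5 and higher for 2 with Nutlin-3a in KO cells, and lower for 6 and higher for 2 in WT cells, beside 20.6% lower and 18.1% higher of all tested genes in KO and 29.2% lower and 29.4% higher in WT cells. The 5 lower in KO cells were 3 without KO Nutlin-3a replicate 1 or KO DMSO replicate 1, and the 2 higher in WT cells were 1 without WT DMSO replicate 2. GLDC, the decarboxylase of the glycine cleavage system, was among the genes that rose. Its level stood at 43.8 and 43.0 CPM in KO Nutlin-3a and 95.4 and 98.2 CPM in WT Nutlin-3a, against 21.3 and 22.4 CPM in KO DMSO and 35.1 and 33.9 CPM in WT DMSO cells. It rose by 0.99 in KO (SE 0.06) and 1.49 in WT cells (SE 0.06), a difference of -0.50 (SE 0.08, adjusted p = 0.000156). AMT, the aminomethyltransferase of the same system, was higher in KO cells under Nutlin-3a (1.46, SE 0.14), while SFXN3, which carries serine into mitochondria, was lower in KO cells under Nutlin-3a (-1.13) and DMSO (-1.13). Of 12 tested methionine cycle and glutathione genes, 2 rose and 3 fell in KO cells, shares near those of all tested genes, and 2 rose and 5 fell in WT cells. MTAP, which salvages methionine, was higher in KO cells, with 72.5 and 68.6 CPM in KO against 7.71 and 8.37 CPM in WT cells under Nutlin-3a, and 90.8 and 92.3 CPM in KO against 15.7 and 15.4 CPM in WT cells under DMSO. MAT2A, which makes S-adenosylmethionine, fell in WT cells (-0.50, SE 0.05, adjusted p = 3.2e-08).

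Targets of ATF4 and the amino acid response, a list of 29 genes that holds ATF4 itself and none of the 10 enzymes, rose in KO cells for 21 and fell for 1, with a median of 0.30, while in WT cells 11 rose and 11 fell, with a median of 0.03. Over all tested genes 18.1% rose and 20.6% fell in KO cells, and 29.4% rose and 29.2% fell in WT cells. The 11 that fell in WT cells were 7 without WT DMSO replicate 1. SESN2, a sestrin, rose by 2.38 in KO and 2.85 in WT cells. NUPR1, a stress-induced chromatin protein, rose by 2.95 in KO and 5.89 in WT cells, with 58.4 and 51.5 CPM in KO Nutlin-3a and 42.0 and 39.0 CPM in WT Nutlin-3a against 7.15 and 7.11 CPM in KO DMSO and 0.789 and 0.562 CPM in WT DMSO cells. SARS, the seryl-tRNA synthetase, rose by 0.76 in KO and 0.89 in WT cells. The difference of responses was higher for 14 and lower for 4 of the 29, beside 14.2% and 13.4% of all tested genes, and lower for 2 without KO Nutlin-3a replicate 2. CEBPG, a partner of ATF4 on DNA (0.74, SE 0.07), and PYCR1 (0.57, SE 0.07) were among the higher ones, and NUPR1 (-2.95, SE 0.21) among the lower. ASNS, asparagine synthetase, was higher in KO cells under Nutlin-3a (1.04, SE 0.06, adjusted p = 2.3e-11), and STC2, a secreted glycoprotein, was lower in KO cells under Nutlin-3a (-1.64) and DMSO (-1.82).

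Of 10 amino acid transporters, 5 rose and 0 fell with Nutlin-3a in KO cells, and 2 rose and 4 fell in WT cells, beside 18.1% higher and 20.6% lower of all tested genes in KO and 29.4% higher and 29.2% lower in WT cells. The 4 that fell in WT cells were 2 without WT Nutlin-3a replicate 1 or WT DMSO replicate 1. SLC1A4, a carrier of serine and alanine, had 24.0 and 20.7 CPM in KO Nutlin-3a, 6.23 and 6.33 CPM in WT Nutlin-3a, 14.9 and 14.8 CPM in KO DMSO, and 8.87 and 7.27 CPM in WT DMSO cells, and was higher in KO cells by 1.84 under Nutlin-3a (SE 0.11, adjusted p = 7.1e-11). SLC7A11, the cystine carrier, rose by 0.86 in KO (SE 0.06) and 0.84 in WT cells (SE 0.06). SLC1A5, a carrier of glutamine, fell in WT cells (-0.62, SE 0.05), and the responses differed by 0.72 (SE 0.07). SLC38A2, another carrier of small neutral amino acids, went the other way, with a rise of 0.46 in WT cells and a difference of -0.51 (SE 0.06).

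**Figure D5:**
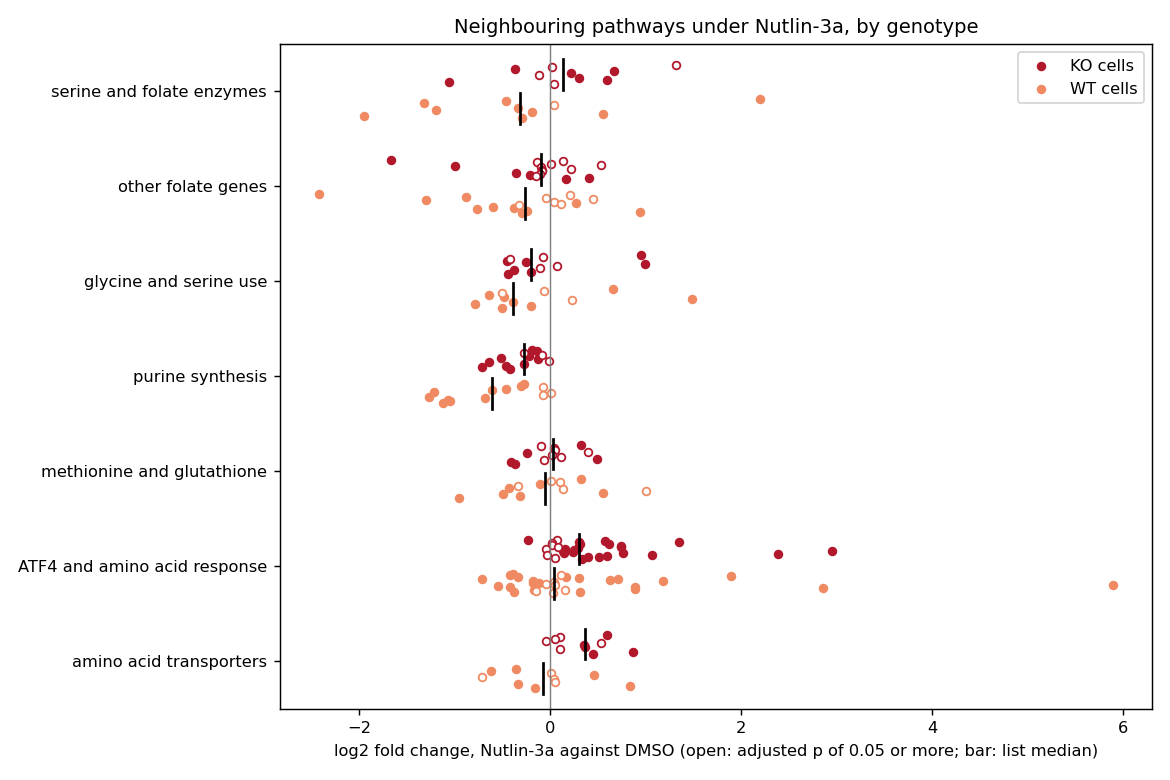
Fitted log2 fold change of Nutlin-3a over DMSO (horizontal axis) for every tested gene of each list, KO above WT; filled points passed an adjusted p of 0.05 and the bar is the list's median. The purine synthesis genes that passed lie left of 0 in both genotypes, with medians of -0.27 in KO and -0.61 in WT cells, and the ATF4 list has medians of 0.30 in KO and 0.03 in WT cells.

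Among the regulators, transcripts of ATF4 rose by 0.30 in KO (SE 0.05, adjusted p = 4.2e-05) and by 0.16 in WT cells (SE 0.05, adjusted p = 0.00680). The difference was 0.14 (SE 0.07, adjusted p = 0.122). MYCN had 2005 and 1898 CPM in KO Nutlin-3a, 2108 and 2010.4 CPM in WT Nutlin-3a, 2434 and 2471 CPM in KO DMSO, and 3382 and 3348 CPM in WT DMSO cells. Its change was -0.33 in KO and -0.71 in WT cells, with a called difference of 0.38 (SE 0.07, adjusted p = 0.000376), and under DMSO it was lower in KO cells (-0.46, SE 0.05). MDM2, which Nutlin-3a blocks, rose by 3.38 in KO and 4.61 in WT cells, and CDKN1A, a cell cycle inhibitor, by 5.12 in KO and 5.39 in WT cells. NFE2L2, an antioxidant regulator that is also known to act on serine synthesis genes, was higher in KO cells under Nutlin-3a (0.64, SE 0.04) and DMSO (1.11, SE 0.05). PKM, the last glycolytic kinase, was lower in KO cells under Nutlin-3a (-0.62, SE 0.05) and DMSO (-0.52, SE 0.05). MYC had group means of 0.918 CPM in KO Nutlin-3a, 0.682 CPM in WT Nutlin-3a, 1.01 CPM in KO DMSO and 0.445 CPM in WT DMSO cells and passed no test.

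Near-identical copies can take reads from these genes. RefSeq names 14 pseudogenes after the members, of which MTHFD2P1 alone was in the count table. It had 1 and 2 reads in KO Nutlin-3a cells and 8 and 7 reads in WT Nutlin-3a cells, beside 2 and 1 reads in KO DMSO cells and 12 and 13 reads in WT DMSO cells. Against 7548 to 14251 reads of MTHFD2 these are few. The antisense gene ALDH1L1-AS1 had 0 to 2 reads per library.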

How the data were processed

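Poly(A) RNA of 8 CHP212 libraries was made strand-specific, per the labels' protocols. The submitters' processing notes list HTSeq 0.8.0, TopHat2 2.1.1 and Bowtie2 2.2.9.0 among their tools, and GRCh37 (hg19) as the build. For the counting, an annotation and a strand setting were not given in the sources used here. Genes that overlap, lie antisense or have close copies are therefore uncertain. The authors deposited whole read counts per gene and, in another table, RPKM values. For 16048 of 16048 genes checked, both tables gave a whole-number gene length within 0.001 bases.

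Counts were fitted with edgeR 4.0.16 in R 4.3.3 as 4 group means over all 8 libraries, after TMM scaling and a low-count filter (filterByExpr) that left 15879 genes, with 4 residual degrees of freedom. Robust quasi-likelihood F tests were run for 5 comparisons, with Benjamini-Hochberg adjustment over all tested genes and a threshold of 0.05. Means are given ± SD with n = 2, and SE values belong to fitted log2 fold changes. Replicates differed by more than counting noise, with a chi-square per gene of 4.04 for KO Nutlin-3a, 9.19 for WT Nutlin-3a, 2.38 for KO DMSO and 2.71 for WT DMSO libraries, so each library was counted once.

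The enzymes, the 6 other pathway lists and the regulators were chosen with earlier results of these data known. The text names all 10 enzymes and regulators, genes among the up to 3 with the smallest p in each list and comparison, and the genes nearest to each enzyme in pattern (log2 CPM with a prior count of 2). GOLGA8H, second nearest to PHGDH, belongs to a family of near-identical copies and its value was left out. Results of some single genes in these lists are not reported here, and the lists' counts and sums include them. The alternatives were DESeq2 1.42.0 size factors and its Wald test, upper-quartile factors, no low-count filter, a block for the replicate number, fits to only the 4 libraries compared, limma-trend (limma 3.58.1) with a pseudocount of 0.1 or 1 added to RPKM before log2, stricter thresholds, and libraries left out. Promoters came from RefSeq on GRCh38.p14 and were matched by symbol, and no GRCh37 coordinates are given.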

Additional observations from a re-analysis of the deposited data

Results flagged for a closer look

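The response to Nutlin-3a differed between KO and WT cells, by the test of the difference itself, for 8 of the 10 enzymes. Over all tested genes this difference was called higher for 14.2% and lower for 13.4%. On the log2 scale the KO response minus the WT response was 1.0828 for PHGDH, 0.9447 for MTHFD1, 0.8899 for SHMT1, 0.6255 for MTHFD1L, 0.559 for MTHFD2, 0.4975 for PSAT1, 0.4824 for ALDH1L2 and 0.3358 for SHMT2. The libraries share the 4 groups, so these values are not independent of each other. A difference of responses also holds any difference between the genotypes under DMSO. For the 4 largest, KO against WT under DMSO was 0.20 for PHGDH, -0.84 for MTHFD1, -0.42 for SHMT1 and -0.36 for MTHFD1L. Under Nutlin-3a it was 1.28, 0.10, 0.47 and 0.27 in the same order. The ALDH1L2 call lay close to the threshold in edgeR (adjusted p = 0.0476). It was lost with the DESeq2 Wald test (adjusted p = 0.155) and when most single libraries were left out. KO and WT cells also differed in MDM2, whose response was lower in KO cells by a difference of -1.23 (SE 0.07), and its part in the enzyme differences was not tested.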

How the results depend on the processing

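Across the alternatives, counts of enzymes called stayed within 1.5 times the values in the report, except with an added log2 change of at least 0.5. That threshold left 3 enzymes and 2209 genes in the KO response, 5 and 4777 in the WT response, and 5 and 1921 for the difference of responses. Between genotypes it left 3 and 5520 with Nutlin-3a, and 2 and 5008 with DMSO. A threshold of 0.01 left 2744 genes for that difference, against 4373. Directions reversed for values that were not called, namely PSPH for KO against WT under DMSO with DESeq2 size factors (-0.0025) and its Wald test (-0.0023), and ALDH1L2 in KO cells (-0.042) and ALDH1L1 for KO against WT under DMSO (0.44) with 3 libraries left out. With 1 library left out, ALDH1L2 in KO cells ran from -0.060 to 0.095, ALDH1L1 for KO against WT under DMSO from -0.94 to 0.44, PSPH for KO against WT with Nutlin-3a from -0.015 to 0.15, and the PSPH difference of responses from -0.039 to 0.12. The cause was not tested. The ALDH1L2 difference of responses (0.48) was also lost with the Wald test (0.49, adjusted p = 0.155) and limma-trend (0.44 and 0.22), and with 3 libraries left out (0.52, adjusted p = 0.0732). On the log2(RPKM + 0.1) scale, limma-trend moved the median of all genes for KO against WT with Nutlin-3a to 0.11.

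Replicates with the same number did not deviate together in all pairs of groups (correlations of -0.02 to 0.23), so the numbers were not taken as pairs. With the number as a block, the ALDH1L2 difference was not called (0.48, adjusted p = 0.0535), and no other call on the 10 enzymes changed. Depth limits ALDH1L1, with 3 to 30 reads per library.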
